A study of Danio rerio with 184 samples.

Results

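The homeobox genes hmx2 (ENSDARG00000070954) and hmx3 (ENSDARG00000070955) were followed through individual hair cells of the lateral line of zebrafish, an organ of the skin for sensing the movement of water. Both were taken by Ensembl identifier, and they are 2 of 12354 Ensembl genes in the count table. The RefSeq annotation of another zebrafish assembly, GRCz12tu, matched by symbol and not by identifier, lists hmx3 as a synonym of hmx3a, and places it and hmx2 next to each other with no listed gene between them. The table holds 184 cells sorted from dissociated trunks of larvae at 6 days post fertilization. All larvae carried the transgene Tg[myo6b:actb1-EGFP], in which a hair cell promoter drives a green fluorescent actin fusion, and 92 cells came from wild-type larvae and 92 from larvae labelled Emx2-mutant. Neither the allele nor its zygosity is described in the labels. Each genotype was spread over plate 2 and plate 4 with 46 cells on each, mutant-labelled cells in columns 1 to 6 and wild-type cells in columns 7 to 12, so genotype and side of the plate cannot be told apart.

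Hmx2 and Hmx3 belong to the Hmx (Nkx5) family of homeodomain transcription factors, which bind DNA and regulate other genes in sensory organs and the nervous system. In zebrafish, hmx2 and hmx3 are expressed in the developing inner ear and lateral line and act in the formation of both organs. In the mouse their counterparts Hmx2 and Hmx3 act in the vestibular part of the inner ear. Emx2, the gene altered in the mutant larvae, encodes another homeodomain factor. It is made in the hair cells of a neuromast, the sensory patch of the lateral line, that share one orientation of the hair bundle, and it sets that orientation. Which of these homeobox transcripts occur together in a cell can therefore be set beside the genotype.

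Transcripts were counted as unique molecular identifiers (UMIs), tags that count each captured molecule 1 time, at the 3′ end of transcripts. A minimum of 1000 UMIs per cell removed 2 wild-type cells, both from plate 4. The 92 mutant-labelled cells held 545364 UMIs and the remaining 90 wild-type cells 537512. The cells of plate 2 were deeper, with median depths of 7560.5 UMIs (mutant-labelled) and 6261.5 UMIs (wild type), than those of plate 4, with 3682.5 and 3495 UMIs. The labels tie no cell to an animal or pool, which makes each genotype 1 sample: there is no test, and the differences have no replicate check. Levels are given in CPM, the summed UMIs of a gene after the UMIs of all genes in the same cells are scaled to a fixed total. All intervals are 95% intervals and cover counting error only. Of a hair cell marker list with 21 matched rows, some were found in every cell and others in few. All 107 cells with a UMI of hmx2 or hmx3, and all 75 cells with neither, had UMIs of the hair cell markers pvalb8, s100s and s100t and of an otoferlin gene (OTOF, ENSDARG00000020581). Among the sparser rows, MYO6 (ENSDARG00000042141) was found in 88 of the 107 and 59 of the 75 cells. POU4F3 was found in 33 and 20, and CDH23 in 6 and 5. TMC2 (ENSDARG00000030311) was near even, with 67 and 47. Other rows were found in a larger share of the cells with hmx2 or hmx3. Among these were ctbp2a, in 16 and 1, and a second otoferlin row (OTOF, ENSDARG00000030832), in 44 and 20. These counts were not brought to a common depth. The leukocyte list matched 1 row, with 0 mutant-labelled UMIs and 1 wild-type UMI, and the erythroid list matched none. The targeted gene emx2 was itself counted in both genotypes, at 193 CPM in mutant-labelled cells and 83.7 CPM in wild type (ratio 2.30, 1.61 to 3.34). A 3′ tag may lie outside the altered part of the gene, so this level does not check the genotype label.

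Transcripts of hmx2 were present in both genotypes at a low level, most often as 1 molecule in a cell. The mutant-labelled cells held 92 hmx2 UMIs, 49 on plate 2 and 43 on plate 4, and the wild-type cells held 65, 39 on plate 2 and 26 on plate 4. Of 92 mutant-labelled cells, 42 had no hmx2 UMI, 33 had 1, 6 had 2, 5 had 3, 2 had 4, 1 had 5, 2 had 6 and 1 had 7. Of 90 wild-type cells, 55 had none, 24 had 1, 7 had 2, 1 had 3, 1 had 5, 1 had 9 and 1 had 10. The 2 highest cells of all were wild type, while cells with 3 to 7 UMIs were mostly mutant-labelled, and the ranges of the genotypes overlapped. The level of hmx2 was 169 CPM (136 to 207) in mutant-labelled and 121 CPM (93.3 to 154) in wild-type cells, a ratio of 1.40 (1.004 to 1.95). Plate 2 alone gave a ratio of 1.21 (0.777 to 1.89), and plate 4 alone 1.72 (1.03 to 2.91). The lower bound for both plates together thus lay at the edge of 1, and the interval of plate 2 included 1.

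Fewer molecules of hmx3 were counted, and the genotypes differed in how these were spread over cells. The mutant-labelled cells held 52 hmx3 UMIs, 38 on plate 2 and 14 on plate 4, against 26 in wild-type cells, 19 on plate 2 and 7 on plate 4. Of the mutant-labelled cells, 68 had none, 15 had 1, 2 had 2, 2 had 3, 1 had 4, 2 had 5, 1 had 6 and 1 had 7. Of the wild-type cells, 68 had none, 18 had 1 and 4 had 2. No wild-type cell therefore reached 3 hmx3 UMIs, and most cells of either genotype had none. The level was 95.3 CPM (71.2 to 125) in mutant-labelled and 48.4 CPM (31.6 to 70.9) in wild-type cells, a ratio of 1.97 (1.21 to 3.29). It was 1.92 (1.08 to 3.53) on plate 2 and 2.08 (0.785 to 6.09) on plate 4, where the interval included 1 at 14 and 7 UMIs.

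**Figure D1:**
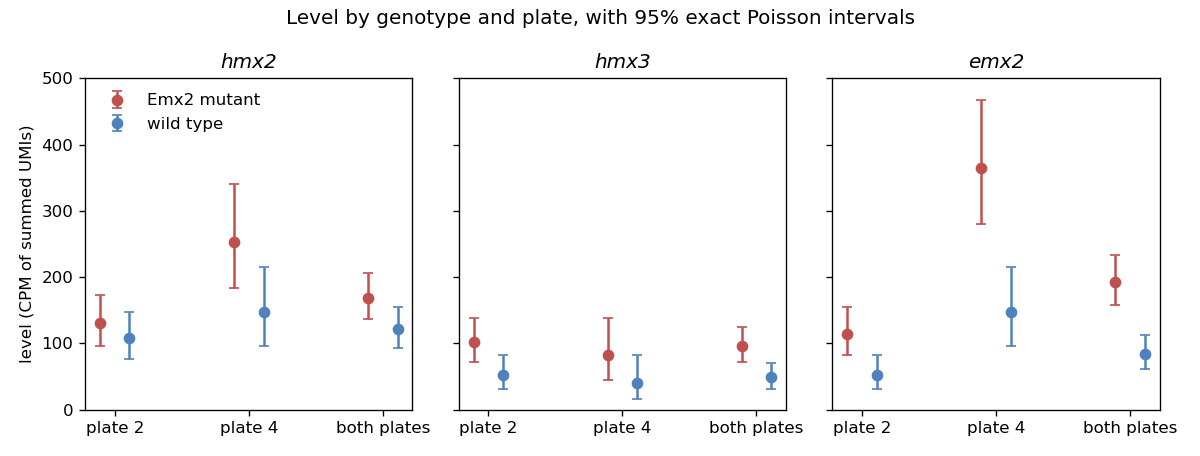
Levels of hmx2, hmx3 and emx2 in CPM (vertical axis) by plate and genotype, each point being the summed UMIs of the cells and each bar a 95% exact Poisson interval for counting error. The mutant-labelled point is above the wild-type point on each plate for all 3 genes, from 82.3 against 39.6 CPM for hmx3 on plate 4 to 365 against 147 CPM for emx2 on plate 4.

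Of the 2 genes, hmx3 was past a 1.5-fold difference between genotypes and hmx2 was not, with 1 UMI added in each genotype (log2 ratios of 0.95 and 0.47). That contrast turned round without cells in which pvalb8 took under 20% of UMIs, where hmx3 stood at 1.34 (0.743 to 2.49) and hmx2 at 1.63 (1.08 to 2.50). This setting left out 18 mutant-labelled and 7 wild-type hmx3 UMIs. Single mutant-labelled cells held 6 and 4 of the 18. The hmx2 ratio also passed 1.5 with a minimum of 3000 UMIs per cell, at 1.59 (1.11 to 2.30), and over all draws of a thinning to 2000 UMIs, at 2.06. Both settings left out a wild-type cell with 9 hmx2 UMIs among 1952. Among the 2143 genes with at least 50 UMIs, 8.17% were higher in mutant-labelled cells by at least 1.5-fold. Both hmx genes were higher in mutant-labelled cells on each plate, which held for 21.5% of the 1528 genes with 50 to 200 UMIs, the range that includes both. Being higher on each plate and by at least 1.5-fold over both plates held for 8.18% of these genes, hmx3 among them. The median log2 ratio of the 1528 genes was -0.074, with quartiles of -0.41 and 0.27, so hmx3 and hmx2 both lay above the upper quartile.

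**Figure D2:**
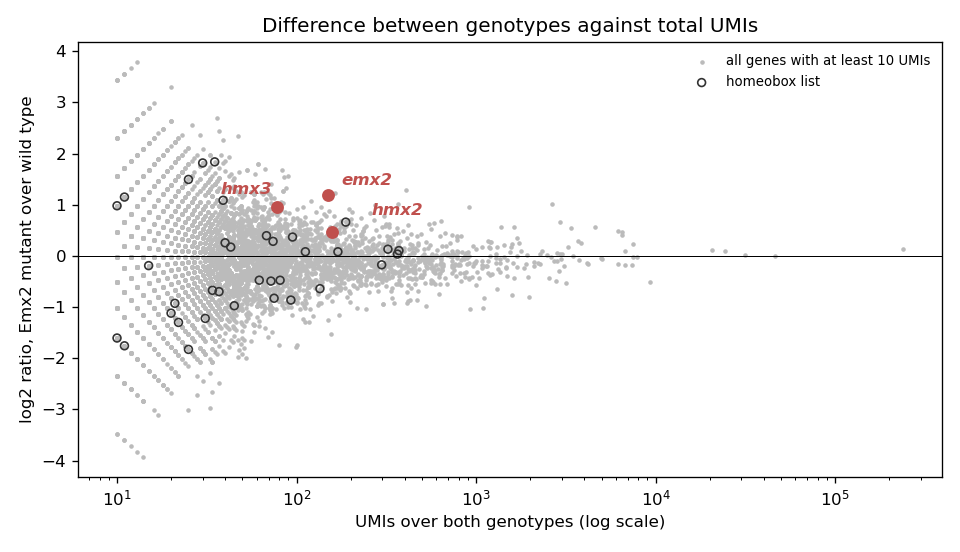
Log2 ratio of mutant-labelled over wild-type level (vertical axis, 1 UMI added in each genotype) against total UMIs (horizontal log axis) for 6287 genes with at least 10 UMIs, with the 38 measured genes of a homeobox list circled and hmx2, hmx3 and emx2 in red. The 3 red points are above 0, at 0.47, 0.95 and 1.18, and the circled genes lie on both sides of 0.

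The number of cells with any molecule and the number with many molecules gave different pictures. A UMI of hmx2 was found in 50 of 92 mutant-labelled cells (54.3%, 43.6 to 64.8). In wild type this was so for 35 of 90 (38.9%, 28.8 to 49.7). A UMI of hmx3 was found in 24 of 92 (26.1%, 17.5 to 36.3) and 22 of 90 cells (24.4%, 15.997 to 34.6), so the detection shares of hmx3 had widely overlapping intervals although its level was 1.97 times as high. Cells with 3 or more hmx3 UMIs numbered 7 of 92 mutant-labelled (7.61%, 3.11 to 15.05) and 0 of 90 wild-type cells (0 to 4.02%). These 7 cells held 33 of the 52 mutant-labelled UMIs. Cells with 1 or 2 hmx3 UMIs held 19 mutant-labelled and 26 wild-type UMIs, a ratio of 0.720 (0.377 to 1.35). Since this split uses the hmx3 count itself, it describes the spread of molecules over cells and does not locate the difference. For hmx2, 11 of 92 mutant-labelled (11.96%, 6.12 to 20.4) and 4 of 90 wild-type cells (4.44%, 1.22 to 10.99) had 3 or more UMIs. Without those cells' UMIs the hmx2 ratio was 1.17 (0.741 to 1.85). The gene emx2 had the same kind of spread, with 13 mutant-labelled and 2 wild-type cells at 3 or more UMIs. An excess of at least 7 mutant-labelled over wild-type cells at 3 or more UMIs, which hmx2, hmx3 and emx2 all had, was met by 1.37% of the genes with 50 to 200 UMIs, a limit chosen after the values were seen. Over all 1528 such genes, pairs of a gene and a cell at 3 or more UMIs numbered 6276 (mutant-labelled) and 7089 (wild type). Depth was not evened out for this count. The deepest cell of all, a wild-type cell of plate 2, held 33325 UMIs, while the deepest mutant-labelled cell held 15923. Pairs were not counted without that wild-type cell, and its part in the higher wild-type number was not tested.

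**Figure D3:**
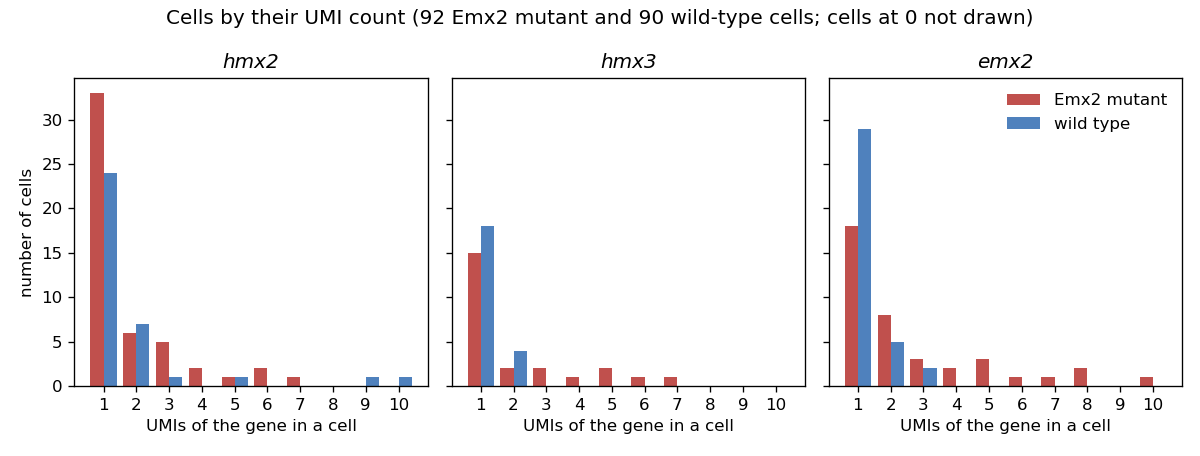
Number of cells (vertical axis) by the UMIs of hmx2, hmx3 or emx2 in the cell (horizontal axis), for 92 mutant-labelled and 90 wild-type cells, with cells at 0 UMIs not drawn. For hmx3 the wild-type bars end at 2 UMIs and the mutant-labelled bars reach 7, and for hmx2 the highest bars, at 9 and 10 UMIs, are 1 wild-type cell each.

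Over all cells, with 1 outlying wild-type cell included, counts of hmx2 varied more than those of most genes of like abundance. The Pearson statistic per degree of freedom, which is 1 where counts follow depth within genotype and plate, was 3.36 for hmx2, above that of 95.5% of genes with 50 to 200 UMIs, whose median was 2.06. For hmx3 it was 2.14, near that median. The counting intervals are therefore too narrow as measures of the spread between cells. Single cells moved the hmx2 ratio both ways. One wild-type cell of plate 4 held 9 hmx2 UMIs among only 1952 UMIs, or 4611 CPM. The Pearson statistic of hmx2 includes this cell and was not computed without it. That cell lies far above the 147 CPM of all wild-type cells of plate 4, so the place of hmx2 above most genes may rest on it. With each cell weighted alike, mean hmx2 levels were 196 CPM for mutant-labelled cells, 148 CPM for wild type and 97.4 CPM for wild type without that cell. The ratio of the means was 1.33 with it and 2.02 without it. For summed UMIs the ratio was 1.61 (1.14 to 2.29) without it, and 1.62 (1.15 to 2.30) without the wild-type cell of plate 2 with 10 hmx2 UMIs. Without the mutant-labelled cell with 7 it was 1.299 (0.930 to 1.82), which includes 1.

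With the plates pooled, depth and detection moved together. Cells with hmx2 had a median of 6389 UMIs and cells without it 4303, and cells with hmx3 had 6249.5 and those without it 4565.5 UMIs. Within each genotype and plate this order also held for hmx2. For hmx3 it was reversed on mutant-labelled plate 4, at 2721.5 with and 3786.5 without. On plate 2 the hmx3 medians were close, at 7777 and 7494.5 in mutant-labelled cells and 6308.5 and 6197 in wild type. Each cell was therefore thinned to 2000 UMIs, which left 89 mutant-labelled and 88 wild-type cells deep enough. In 1 random draw, 17 of 89 mutant-labelled (19.1%, 11.5 to 28.8) and 9 of 88 wild-type cells (10.2%, 4.78 to 18.5) kept an hmx2 UMI. For hmx3 the draw gave 13 of 89 (14.6%, 8.01 to 23.7) and 7 of 88 cells (7.95%, 3.26 to 15.7). The mean over all possible draws was 27.6% and 16.8% for hmx2 and 13.3% and 8.60% for hmx3, so single draws of such sparse counts scatter. At 2000 UMIs both genes were thus found in a larger share of mutant-labelled cells, with overlapping intervals in the draw. Over all draws at 1000 UMIs the shares were 15.6% and 9.94% for hmx2 and 8.92% and 5.31% for hmx3. At 5000 UMIs, which 50 mutant-labelled and 41 wild-type cells reached, they were 46.9% and 37.2% for hmx2 but 21.6% and 24.5% for hmx3. The order of the genotypes was therefore the same at the 3 depths for hmx2 and turned at 5000 UMIs for hmx3. No cell population that should lack these genes was measured, so the share of cells with a stray UMI is unknown.

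The levels by genotype and plate followed different orders for the 2 genes. For hmx2 the order from high to low was mutant-labelled plate 4 (253 CPM, 183 to 341), wild-type plate 4 (147 CPM, 96.1 to 216), mutant-labelled plate 2 (131 CPM, 96.6 to 173) and wild-type plate 2 (108 CPM, 76.9 to 148). The intervals of each neighbouring pair in that order overlap. For hmx3 the order was mutant-labelled plate 2 (101 CPM, 71.6 to 139), mutant-labelled plate 4 (82.3 CPM, 45.02 to 138), wild-type plate 2 (52.7 CPM, 31.7 to 82.2) and wild-type plate 4 (39.6 CPM, 15.9 to 81.6), again with overlap between neighbours. Plate 4 was thus above plate 2 for hmx2 by 1.94 (1.26 to 2.98) in mutant-labelled cells. In wild-type cells this ratio was 1.36 (0.796 to 2.29), an interval that includes 1. A single cell held 9 of the 26 wild-type hmx2 UMIs of plate 4. The other wild-type cells of plate 4 held 17, which is 96.2 CPM when set against the UMIs of all wild-type cells of that plate. This is under the 108 CPM of wild-type plate 2 with all its cells, so the wild-type order of the plates rests on 1 cell. The same plate ratio of hmx3 was 0.813 (0.407 to 1.54) and 0.752 (0.267 to 1.87), with intervals that include 1. More molecules of hmx2 than of hmx3 were counted in every genotype and plate. The ratio of hmx2 to hmx3 UMIs was 1.77 (1.25 to 2.54) for mutant-labelled cells and 2.50 (1.56 to 4.11) for wild type. Since 3′ tags count molecules, not length, this compares captured transcript ends, and capture may differ between the genes.

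At full depth, hmx2 and hmx3 were found together about as often as independent detection within each plate gives. In mutant-labelled cells both genes had a UMI in 13 cells, against 13.3 expected, a ratio of 0.977 (0.520 to 1.67). Of the 50 mutant-labelled cells with hmx2, 26% (14.6 to 40.3) had hmx3, and of the 42 without hmx2, 26.2% (13.9 to 42.04) had it. In wild type both were found in 11 cells against 8.79 expected, a ratio of 1.25 (0.625 to 2.24). Of 35 wild-type cells with hmx2, 31.4% (16.9 to 49.3) had hmx3, against 20% (10.4 to 32.97) of 55 without it, and the intervals overlap. By plate the observed and expected counts were 8 against 8.52 and 5 against 4.78 in mutant-labelled cells of plates 2 and 4, and 8 against 6.61 and 3 against 2.18 in wild type. Over both genotypes the ratio of observed to expected cells was 1.09 (0.696 to 1.62). Across 1367 genes detected in 20% to 60% of cells, the median of the same ratio with hmx2 was 1.07 (quartiles 0.996 and 1.14), and hmx3 was above 55.9% of those genes. At 2000 UMIs per cell the counts were far smaller. The draw had 5 mutant-labelled cells with both against 2.21 expected (ratio 2.27) and 1 wild-type cell against 0.685 (ratio 1.46). All 5 mutant-labelled cells were on plate 4. Another draw had 4 mutant-labelled cells against 4.25 expected (ratio 0.942) and 0 wild-type cells against 0.774. Over all draws the ratio of mean observed to mean expected cells was 1.39 for mutant-labelled cells and 1.19 for wild type. Both are above 1 but rest on means of 4.505 and 1.48 cells with both genes.

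The level of hmx3 overlapped between cells with and without hmx2. In mutant-labelled cells hmx3 stood at 104 CPM (71.4 to 146) where hmx2 was found and 83.6 CPM (50.3 to 130) where it was not. In wild type the values were 52.8 CPM (28.9 to 88.6) and 44.04 CPM (22.8 to 76.9). The correlation of hmx2 and hmx3 over 177 thinned cells, centred within genotype and plate, was 0.14, a weak value in sparse counts. Among cells with many molecules, 4 of the 11 mutant-labelled cells with 3 or more hmx2 UMIs also had hmx3, and 4 of the 7 with 3 or more hmx3 UMIs had hmx2. One mutant-labelled cell of plate 2 was high in both, with 5 hmx2 and 6 hmx3 UMIs among 12506. None of the 4 wild-type cells with 3 or more hmx2 UMIs had an hmx3 UMI.

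Joint detection of hmx2 with emx2 was above independence, with intervals that include it. Over both genotypes 41 cells had both against 35.2 expected, a ratio of 1.17 (0.836 to 1.58), and emx2 was above 82.4% of the 1367 genes by this ratio with hmx2. In mutant-labelled cells 23 had both hmx2 and emx2 against 21.3 expected (ratio 1.08, 0.686 to 1.62), and in wild type 18 against 13.9 (ratio 1.29, 0.766 to 2.04). The wild-type excess came from plate 4, with 11 cells against 6.91, while plate 2 had 7 against 7.02. Of the 16 wild-type cells of plate 4 with hmx2, 68.8% (41.3 to 88.98) had emx2, against 28.6% (13.2 to 48.7) of 28 without hmx2. The level of hmx2 there was 229 CPM (140 to 354) in the 19 cells with emx2 and 66.99 CPM (24.6 to 146) in the 25 without it. Without the cell highest in hmx2 the ratio of those levels fell from 3.42 (1.33 to 10.4) to 1.93 (0.653 to 6.35), which includes 1. On wild-type plate 2 the order was opposite, at 85.2 CPM with emx2 and 127 CPM without it (ratio 0.670, 0.322 to 1.34). In mutant-labelled cells of both plates hmx2 stood at 193 CPM (141 to 258) with emx2 and 151 CPM (111 to 200) without it, with overlapping intervals. Thinned to 2000 UMIs, 4 mutant-labelled cells of the draw had both against 3.81 expected and 1 wild-type cell against 1.73. The ratio of means over all draws was 0.980 in mutant-labelled cells, against 1.204 in wild type.

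For hmx3 and emx2 the joint count was under independence in wild type and close to it in mutant-labelled cells. Over both genotypes 17 cells had both against 18.7 (ratio 0.908, 0.529 to 1.45), and emx2 was above 21.1% of the 1367 genes by this ratio with hmx3. In wild type 6 cells had both against 8.50 expected (ratio 0.706, 0.259 to 1.54), with 4 against 5.91 on plate 2 and 2 against 2.59 on plate 4. In mutant-labelled cells 11 had both against 10.2 (ratio 1.08, 0.537 to 1.93). Of 22 wild-type cells with hmx3, 27.3% (10.7 to 50.2) had emx2, against 44.1% (32.1 to 56.7) of 68 without hmx3. These intervals overlap, so the counts do not separate the genes. Levels of emx2 in cells with and without hmx3 were compared next. Over both genotypes emx2 stood at 92.1 CPM (61.7 to 132) in the 46 cells with hmx3 and 158 CPM (131 to 188) in the 136 cells without it, a ratio of 0.585 (0.376 to 0.883). This pooled value also carries the plates, since plate 2 held 14 of the 24 mutant-labelled and 16 of the 22 wild-type cells with hmx3, and emx2 was higher on plate 4, by 3.18 (2.12 to 4.81) in mutant-labelled cells and 2.79 (1.49 to 5.34) in wild type. The ratio was 0.535 (0.215 to 1.17) in wild type and 0.601 (0.354 to 0.979) in mutant-labelled cells. By plate it was 0.729 (0.205 to 2.14) and 0.511 (0.0982 to 1.69) in wild type. In mutant-labelled cells it was 1.24 (0.633 to 2.38) on plate 2 and 0.313 (0.0824 to 0.844) on plate 4, where emx2 itself was highest. Without the cell with hmx3 that was highest in emx2, plate 2 gave 0.848 (0.378 to 1.78) and plate 4 gave 0.275 (0.0551 to 0.844). The opposite direction on plate 2 thus rests on 1 cell. This setting drops a cell only from the side with hmx3, which favours a lower ratio. The plate 4 value rests on 4 emx2 UMIs in 10 cells against 58 in 36. Of these 62 UMIs, 8 cells held 50, a spread that the counting interval does not cover. Taken the other way, hmx3 stood at 55.7 CPM in cells with emx2 and 85.3 CPM in cells without it. The ratio was 0.653 (0.394 to 1.06), and 1.62 (0.492 to 5.65) on mutant-labelled plate 4. There it fell to 0.644 (0.104 to 3.02) without the cell with emx2 that was highest in hmx3, so its direction rests on 1 cell. Of the 7 mutant-labelled cells with 3 or more hmx3 UMIs, 2 had an emx2 UMI, 1 of them with 6. The correlation of hmx3 with emx2 over the 177 thinned cells was -0.11. At 2000 UMIs 2 mutant-labelled cells of the draw had both against 2.73 expected, and 0 wild-type cells against 1.14. The ratio of means over all draws was 0.799 and 0.275, with mean joint counts of only 2.33 and 0.314 cells. It did not keep one side of 1 across depths, with 0.777 and 1.54 at 1000 UMIs and 1.101 and 0.633 at 5000 UMIs. The wild-type 1.54 rests on a mean of 0.630 joint cells, with ratios of 2.92 on plate 2 and 0.147 on plate 4. A wild-type cell of plate 2 with both genes held only 1576 UMIs, 2 of them of hmx3. It was too shallow for 2000 or 5000 UMIs and entered at 1000 UMIs. The ratio at 1000 UMIs was not computed without this cell. At 2000 and 5000 UMIs, where the cell is absent, the wild-type ratio was under 1. The wild-type value above 1 may therefore rest on this cell.

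**Figure D4:**
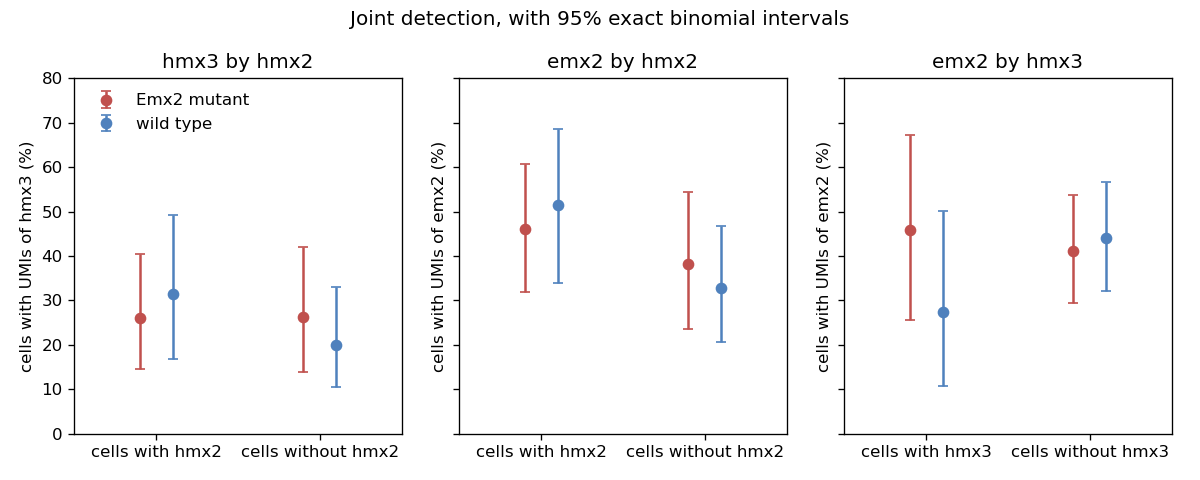
Share of cells in percent (vertical axis) with UMIs of a second gene among cells with and without the first, for hmx3 by hmx2, emx2 by hmx2 and emx2 by hmx3, with 95% exact binomial intervals for counting error. The intervals overlap between cells with and without the first gene in each genotype, and the widest gap is 51.4% against 32.7% for emx2 by hmx2 in wild type.

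Taking the 3 genes in 1 view, 50 of 182 cells (27.5%, 21.1 to 34.6) had none of them, 21 of 92 mutant-labelled (22.8%, 14.7 to 32.8) and 29 of 90 wild-type cells (32.2%, 22.8 to 42.9). Over both genotypes the most frequent combination was hmx2 with emx2 and no hmx3, in 18 mutant-labelled and 15 wild-type cells. Detection of hmx2 alone was more frequent than this in mutant-labelled cells, with 19 cells against 9 in wild type, and emx2 alone was as frequent in wild type, with 15 cells against 10. All 3 genes were found in 5 mutant-labelled cells against 3 of wild type, and hmx3 with emx2 but no hmx2 in 6 against 3. The median depth of cells with none was 4200.5 UMIs and of cells with all 3 it was 7728.5 UMIs, so depth moved with these combinations over both plates. On mutant-labelled plate 2 the order was opposite, at 7379 and 6795 UMIs.

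Hair cell character and the markers of other cell types were set beside hmx detection. The calcium-binding protein gene pvalb8 took a median of 23.4% of UMIs in cells with hmx2 and 23.5% in cells without it, and 23.3% and 23.7% for hmx3. Neuron and glia markers, on 5 matched rows, summed to 66.7 CPM in cells with hmx3 and 31.2 CPM in cells without it, from 25 mutant-labelled and 20 wild-type UMIs in all. For hmx2 this sum was 41.2 and 42.01 CPM. Muscle markers stood at 1043 CPM over mutant-labelled and 1650 CPM over wild-type cells, with 8 of 8 rows detected in each and 0 to 5769 and 0 to 8355 CPM in single cells. Epidermis markers stood at 2213 and 2340 CPM, with 8 and 6 of 8 rows. Support cell markers, which belong to the cells around hair cells, summed to 537 CPM with hmx2 and 468 CPM without it, and to 479.7 and 516 CPM for hmx3. Over the genotypes the support cell list stood at 592 CPM (mutant-labelled) and 417 CPM (wild type), with 0 to 6885 and 0 to 2308 CPM in single cells and 7 of 8 rows with a UMI in each. The part of these markers in the hmx levels was not tested. In mutant-labelled cells hmx3 was higher in 14 cells with less than 20% of their UMIs from pvalb8, at 190.3 CPM (113 to 301), than in the other 78, at 75.4 CPM (52.2 to 105). The 14 cells held 18 hmx3 UMIs, with 6 in 1 cell and 4 in another, so this level rests on few cells. In wild type the 26 cells under 20% stood at 34.99 CPM (14.1 to 72.1) and the other 64 at 56.3 CPM (33.9 to 87.9), so the genotypes went apart.

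Other genes of hair cell fate and Notch signalling were set beside the hmx levels in the same way. In cells with a UMI of ATOH1, the factor that starts hair cell fate, hmx2 stood at 190.2 CPM in mutant-labelled cells, against 159.5 CPM in those without it. In wild type hmx2 stood at 169 CPM (113 to 243) with ATOH1 and 98.3 CPM (68.8 to 136) without it, a ratio of 1.72 (1.02 to 2.89). The plates are pooled in this ratio, and single wild-type cells held 10 and 9 of the 65 hmx2 UMIs. It was computed neither by plate nor without those cells. Levels of hmx3 by ATOH1 were 92.03 against 96.8 CPM and 52.6 against 46.4 CPM. In mutant-labelled cells with POU4F3, a homeodomain factor of hair cell maturation and survival, hmx3 stood at 45.8 CPM (20.95 to 86.98), against 123 CPM (89.2 to 166) without it. In wild type the order was turned, at 55.1 CPM (28.5 to 96.3) against 43.8 CPM (23.9 to 73.4). The mutant-labelled levels by POU4F3 pool the plates and rest on 9 and 43 hmx3 UMIs. Of these 52 UMIs, 7 cells held 33. For DLD, a Notch ligand gene, and her4.5, a Notch target, all intervals of the ratio between cells with and without the gene included 1, for both hmx genes in each genotype. Over both genotypes hmx2 stood at 178 CPM with her4.5 and 138 CPM without it, and hmx3 at 49.98 and 76.4 CPM.

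Against other homeobox genes the pair ranked in the upper part. Of 58 rows matched to a list of homeobox genes, 38 had at least 10 UMIs, and by total UMIs hmx2 was number 7 and hmx3 number 14. The genes above hmx2 included POU4F1, HOXB7, barhl1a, DLX3 and pbx4, and emx2 came directly after it at number 8. By level, 20 of the 38 genes were above and 18 below wild type in the mutant-labelled cells, with a median log2 ratio of 0.057, against -0.051 over the 6287 genes with at least 10 UMIs. Among them 9 were higher and 13 lower by at least 1.5-fold, where 20.1% and 23.1% of all genes were. In both plates 13 were higher and 10 lower, where 25.3% and 26.7% of the 6287 genes were. The list thus went both ways. With the most UMIs, POU4F1 stood at 356 against 331 CPM (ratio 1.07, 0.872 to 1.32) and HOXB7, a Hox gene of trunk position, at 341 against 333 CPM (ratio 1.02, 0.830 to 1.27). Among genes with at least 20 UMIs, the largest ratios upward were those of pbx1a (3.94, 1.68 to 10.7) and satb1a (3.94, 1.57 to 11.8), from 28 against 7 and 24 against 6 UMIs. Downward it was PAX2 (0.246, 0.0723 to 0.677), from 5 against 20 UMIs.

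Among the transcription factors known from the lateral line and hair cells, hmx2 was number 8 and hmx3 number 16 of 24 measured genes. Here 11 were above wild type in mutant-labelled cells and 13 below, with a median log2 ratio of -0.078. The genes with the most UMIs were gfi1aa (398 against 448 CPM, ratio 0.887, 0.735 to 1.07) and EYA1 (337 against 316 CPM, ratio 1.07, 0.861 to 1.32). By summed UMIs hmx2 stood between DLX3 and emx2, and hmx3 between six2b and six4b. In mutant-labelled cells 4 of the 24 were higher by at least 1.5-fold, which were emx2, hmx3, DLX3 and HES6, and 6 were lower, shares close to the 20.1% and 23.1% of all genes. HES6 rests on 12 and 7 UMIs, and DLX3 (ratio 1.59, 1.17 to 2.16) on plate 2, with 96 against 52 UMIs there and 20 against 20 on plate 4.

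**Figure D5:**
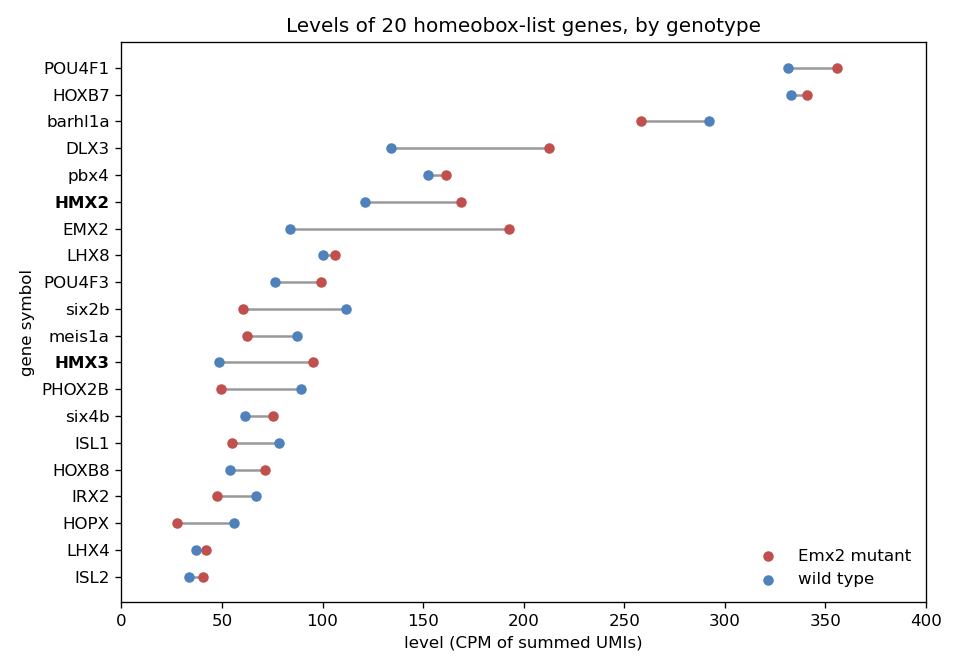
Level in CPM (horizontal axis) of 20 homeobox-list genes, those with the most UMIs among the genes reported, 1 row per gene, with mutant-labelled and wild-type values joined by a line. HMX2 is at 169 and 121 CPM and HMX3 at 95.3 and 48.4 CPM, while the genes drawn above HMX2 reach from 134 to 356 CPM.

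No gene followed either hmx gene closely across cells. Over 177 cells thinned to 2000 UMIs and centred within genotype and plate, the highest of 823 correlations with hmx2 were 0.23 for h2az2b, a histone variant gene, 0.21 for TXNDC15 and 0.20 for ubc, a ubiquitin gene. For hmx3 they were 0.30 for mhc1zba, a gene of antigen presentation, 0.23 for ENSDARG00000116179 and 0.20 for a ribosomal RNA row (ENSDARG00000104115). Of these, mhc1zba had 0.38 on plate 2 and 0.23 on plate 4, while the ribosomal RNA row had 0.39 and -0.083. The cells share library, sort and depth, and these values are a description.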

How the data were processed

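The assay was mcSCRB-seq, which counts UMIs at transcript 3′ ends of cells sorted into plate wells, per the labels' protocols. The values the authors deposited are raw UMI counts (whole numbers) for every gene in every cell. The submitters' processing notes name STAR 2.6.0a and the build GRCz11; no source used here names the counting tool or the gene annotation. Barcodes link all 184 count columns to samples, and no barcode is shared. Spike-in transcripts, 54 of 12409 rows and 5.15% of UMIs, were kept out of totals. Symbols were found for 11707 of 12354 Ensembl genes, often without a final a or b, and lists were matched with or without that letter.

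Members and lists were chosen with earlier results of these data known. Genotype came from the labels and plate from the well code in the titles. Cells under 1000 UMIs were left out and UMIs summed by genotype. Levels have exact Poisson intervals, ratios exact conditional (Clopper-Pearson) intervals and shares exact binomial intervals. No doublet caller or clustering was run. Expected joint counts were computed within plates and added. The planned measure of joint detection was 1 thinning draw at 2000 UMIs; full-depth values are printed beside it, and means over all draws were added after seeing the data. Named genes were hmx2, hmx3, emx2, up to 3 members of a list with the most UMIs, up to 3 with the largest ratio if they had at least 20 UMIs, and the 3 most correlated genes found in at least 20% of thinned cells. Further genes were named after their values were seen. Some list members count in the totals but are not reported here by name. Other scalings used factors from edgeR 4.0.16 and DESeq2 1.42.0 under R 4.3.3. Ratios were tested on simulated Poisson counts at the depths of these cells, and joint counts on simulated cells without depth or plates. The counts here vary more between cells than Poisson counts, so these simulations do not give the coverage of the intervals printed. Versions were Python 3.11.15, with scipy 1.17.1, numpy 2.4.6, matplotlib 3.10.9 and pandas 2.3.3.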

Additional observations from a re-analysis of the deposited data

How the results depend on the processing

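No paired analysis was possible because each genotype is 1 sample and the cell numbers pair nothing. Over 18 alternatives each, some added after seeing the data, the ratio between genotypes stayed above 1, from 1.21 to 2.25 for hmx2, 1.34 to 2.47 for hmx3 and 2.09 to 2.70 for emx2. The hmx2 interval included 1 with no minimum of UMIs (0.994 to 1.92) and without the deepest cell (0.983 to 1.92). It also did without mitochondrial and ribosomal protein genes in the totals (0.998 to 1.93), on plate 2, and without the highest mutant-labelled cell. The hmx3 interval included 1 on plate 4 and without cells low in pvalb8. The other intervals computed lay above 1. The hmx2 ratio moved furthest in the thinning draw (2.25), over all draws (2.06), and as a mean over cells without the highest wild-type cell (2.02). These settings are not separate checks, since each left out that same cell. It held 9 hmx2 UMIs and, at 1952 UMIs, was too shallow to be thinned to 2000. Shares for mutant-labelled and wild-type cells were 42% and 36.6% (hmx2), 24% and 19.5% (hmx3) and 40% and 29.3% (emx2) in the draw at 5000 UMIs. There the mean over all draws turned the order of hmx3 (21.6% and 24.5%), though not on plate 2 alone (24.52% and 24.01%). Only 6 mutant-labelled and 7 wild-type cells of plate 4 reached that depth. Without thinning they were 54.3% and 38.9%, 26.1% and 24.4%, and 42.4% and 40%. At 1000 UMIs hmx3 was at 6.52% and 1.11%. The mutant-labelled hmx2 share was 29.2% in another draw, 8.70% on plate 2 and 30.2% on plate 4. Observed over expected joint detection was 0 for hmx2 with hmx3 on mutant-labelled plate 2 (0.696 cells expected). In wild type it was 0 at 1000 UMIs (0.0652 expected), in another draw (0.774) and on plate 2 (0.267). It was also 0 for hmx2 with emx2 on wild-type plate 2 (0.333) and for hmx3 with emx2 in mutant-labelled cells at 1000 UMIs (0.913). With under 1 cell expected in each, these zeros do not show a lack of joint detection. A further 0 was that of hmx3 with emx2 in wild type, in every thinned draw. Its expected count was 1.14 cells at 2000 UMIs and 2.23 at 5000 UMIs, where the interval of the ratio (0 to 1.66) included 1. Over all draws at 5000 UMIs the mean was 1.82 joint cells against 2.87 expected. Of the 3 genes most like hmx2, 2 recurred with depth-scaled counts, 0 on plate 2 and 0 on plate 4. For hmx3, 1 recurred with depth-scaled counts, 3 on plate 2 and 0 on plate 4. The share of genes past 1.5-fold either way was 43.3%, and 20.8% with at least 50 UMIs. At 2000 UMIs the draw held at most 5 joint cells per genotype, which limits precision. The causes of these shifts were not tested.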
